A study of Mus musculus with 12 samples.

Results

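The genes described here are the 4 Notch receptors of the mouse (Notch1, Notch2, Notch3 and Notch4), 4 of their ligands (Dll4, Dll1, Jag1 and Jag2) and 2 of their targets (Hes1 and Dtx1), measured in the thymic epithelium/stroma of day 7 pups. They were taken by name, from a list chosen with earlier results of these data known. They are 10 of the 19938 genes that had a probe set carrying 1 gene symbol. A gene with several such probe sets would have been read from its brightest, but each of the 10 had exactly 1. Notch4 had 6 further probe sets whose symbols it shares with Sympk, and these were not used.

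The pups were FCG mice, a cross on a C57BL/6J background that separates gonads from sex chromosomes and in which the testis-determining gene Sry is missing from the Y chromosome and present as an autosomal transgene in gonadal males. The groups were XY gonadal males with the Sry transgene (XYM, 2 arrays), XX gonadal males with the Sry transgene (XXM, 4 arrays), XY gonadal females without the transgene and so with no Sry (XYF, 3 arrays) and XX gonadal females without the transgene (XXF, 3 arrays). Every XY pup of either sex thus carried the Y chromosome that lacks Sry, and no group had an ordinary Y chromosome. RNA came from the tissue left after thymocytes had been pressed out and the remnant washed, and was hybridised to whole-transcript mouse arrays. The design asks whether a level follows the gonads (6 male and 6 female arrays) or the sex chromosomes (5 XY and 7 XX arrays). The gonads and the Sry transgene go together in these groups. Arrays are named below by genotype and by the array number, 1 to 12, in the labels. The labels do not say whether arrays stand for separate pups, and a p-value here is set against the spread between arrays only.

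Notch signalling passes between touching cells. A ligand on one cell pulls on a receptor on its neighbour, proteases cut the receptor, and its intracellular part enters the nucleus and joins the DNA-binding protein Rbpj to switch on genes such as Hes1. In the thymus, Dll4 on cortical epithelial cells, where the epithelial regulator Foxn1 drives it, engages Notch1 on incoming progenitors and commits them to the T cell lineage. The ligand and its receptor therefore sit in different cells, while a bulk array adds up the RNA of all of them, and fewer cells of a type cannot be told apart from less RNA per cell.

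Levels are linear signal intensities as deposited, in arbitrary units. Differences of a gene between groups were read within its probe set. The background below and the sums of marker lists bring several probe sets together. With no detection call, 1035 probe sets of olfactory receptors, genes largely silent outside the nose, gave a background, with a 95th percentile of 309.5 and a 99th of 458.8. The tissue label was checked against markers: all 10 cortical epithelial genes lay above the 95th percentile, Foxn1 (1101 to 1594) and Psmb11 (1423 to 1768) among them, as did 8 of 9 medullary epithelial genes, all 12 endothelial genes and all 6 fibroblast genes. All 13 thymocyte genes also did, with Cd3e, a chain of the T cell receptor complex, at 3734 to 4485, so thymocyte transcripts were still measured after the washing. Of 5 B cell genes 2 did, Cd79b at 654 to 925 and Blk with a mean of 313, while Cd79a, at 93.6 to 172, did not.

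The promoters of the ligand and receptor that start T cell commitment, Dll4 and Notch1, and of Jag1, the ligand whose signal ran most clearly against that of a target, are shown as the 250 bases before the RefSeq start of each gene in the assembly GRCm38.p6. All 3 genes lie on chromosome 2: Dll4 at chr2:119325534-119325783 on the plus strand, Notch1 at chr2:26503823-26504072 on the minus strand and Jag1 at chr2:137116521-137116770 on the minus strand. Capitals mark GC boxes (GGGCGG on either strand), the motif of Sp1 family factors.
Dll4: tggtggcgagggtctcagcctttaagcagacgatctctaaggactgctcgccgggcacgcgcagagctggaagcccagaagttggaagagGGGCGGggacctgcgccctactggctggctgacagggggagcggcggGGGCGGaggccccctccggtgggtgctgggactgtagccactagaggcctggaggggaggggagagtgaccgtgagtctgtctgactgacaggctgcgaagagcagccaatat
Notch1: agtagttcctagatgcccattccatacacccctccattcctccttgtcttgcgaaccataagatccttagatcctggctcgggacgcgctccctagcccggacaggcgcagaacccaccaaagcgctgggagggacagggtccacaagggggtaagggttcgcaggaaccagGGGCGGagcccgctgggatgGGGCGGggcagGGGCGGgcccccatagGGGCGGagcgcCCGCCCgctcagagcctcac
Jag1: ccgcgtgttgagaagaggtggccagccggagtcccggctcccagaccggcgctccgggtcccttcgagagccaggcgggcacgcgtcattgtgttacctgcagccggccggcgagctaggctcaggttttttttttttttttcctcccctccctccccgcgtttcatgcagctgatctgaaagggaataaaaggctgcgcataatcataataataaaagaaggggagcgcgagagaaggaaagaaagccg
Dll4 held 2 GC boxes, Notch1 held 5 and Jag1 held none. Of the 10 genes, 9 had an entry in the RefSeq table used here. Hes1 had none, so its promoter was not searched for either motif. Of the 9, 6 had a GC box (Dll4, Jag2, Notch1, Notch2, Notch3 and Dtx1), against 32.7% of all 32851 windows of this length. The core letters bound by Rbpj (GTGGGAA, either strand) occurred in 0 of the 9, against 5.42% of all windows. By base composition the Jag2 window was the richest of the 9, at 87.2% G and C, where the median window had 52.4%. These are matches of letters only.

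Dll4, the ligand that commits progenitors to the T lineage, had a signal of 1750.3 and 1689.5 in XYM, 1672, 1937, 1260.3 and 1638 in XXM, 1721, 1825 and 1820.3 in XYF, and 1772, 1771 and 1665 in XXF. Both ends of its range were XXM arrays, array 6 at the bottom and array 5 at the top, a 1.54-fold span, while the 3 other genotypes stayed between 1665 and 1825. The male arrays averaged 1658 ± 222 and the female arrays 1762 ± 61.2 (SD, n = 6 each). The fitted log2 difference was -0.08 (male minus female, 95% confidence interval -0.29 to 0.12) and 0.07 (XY minus XX, -0.13 to 0.27). Without XXM array 6 these became -0.02 and 0.01. Dll4 was also ranked by the SD of its log2 signal over the 12 arrays. It lay 63.1 percent of the way up the 24434 probe sets with a mean signal of at least 200.

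Dll1, another Delta ligand, which supports T cell development when supplied in culture, had 402 and 360.1 in XYM, 364, 358, 377 and 327 in XXM, 388, 417 and 375 in XYF, and 383, 352 and 368 in XXF. Its mean of 372 lay above the 95th but below the 99th percentile of the olfactory receptor background. XY arrays were at 388 ± 22.2 (SD, n = 5) and XX arrays at 361 ± 18.6 (SD, n = 7), with a fitted log2 difference of 0.10 (95% confidence interval -0.04 to 0.23). The groups overlapped, the lowest XY array lying below 4 of the 7 XX arrays.

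Jag1, a ligand of the Jagged family carried by epithelial, vascular and stromal cells, had 749 and 695 in XYM, 618, 662, 690.2 and 649 in XXM, 760.4, 659.9 and 637 in XYF, and 683, 629 and 641 in XXF. XYF array 4 and XYM array 1 were the brightest, XYM array 9 was just above the highest XX array, and XYF arrays 8 and 12 fell among the XX arrays. The XY mean was 700.1 ± 53.9 (SD, n = 5) and the XX mean 653 ± 26.8 (SD, n = 7), a fitted log2 difference of 0.11 (95% confidence interval -0.03 to 0.25).

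Jag2, the other Jagged ligand, had 1189.7 and 1048 in XYM, 1025, 1107, 973 and 1006 in XXM, 1146, 1165 and 1211 in XYF, and 1149.9, 923 and 975 in XXF. Of the 5 XY arrays, 4 were at 1146 or higher, XYM array 9 being the exception, whereas of the 7 XX arrays only XXF array 3 was. The XY mean was 1152 ± 63.1 (SD, n = 5) and the XX mean 1023 ± 79.8 (SD, n = 7). Jag2 was the 1 gene of the 10 whose fitted interval for the sex chromosomes did not include 0: the log2 difference was 0.17 (XY minus XX, standard error 0.07, 95% confidence interval 0.01 to 0.32), with an unadjusted p of 0.0369. After Benjamini-Hochberg adjustment over all probe sets in limma the p was 1.00, so it did not pass. Without XYM array 1 the difference was 0.12, with an unadjusted p of 0.160.

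**Figure D1:**
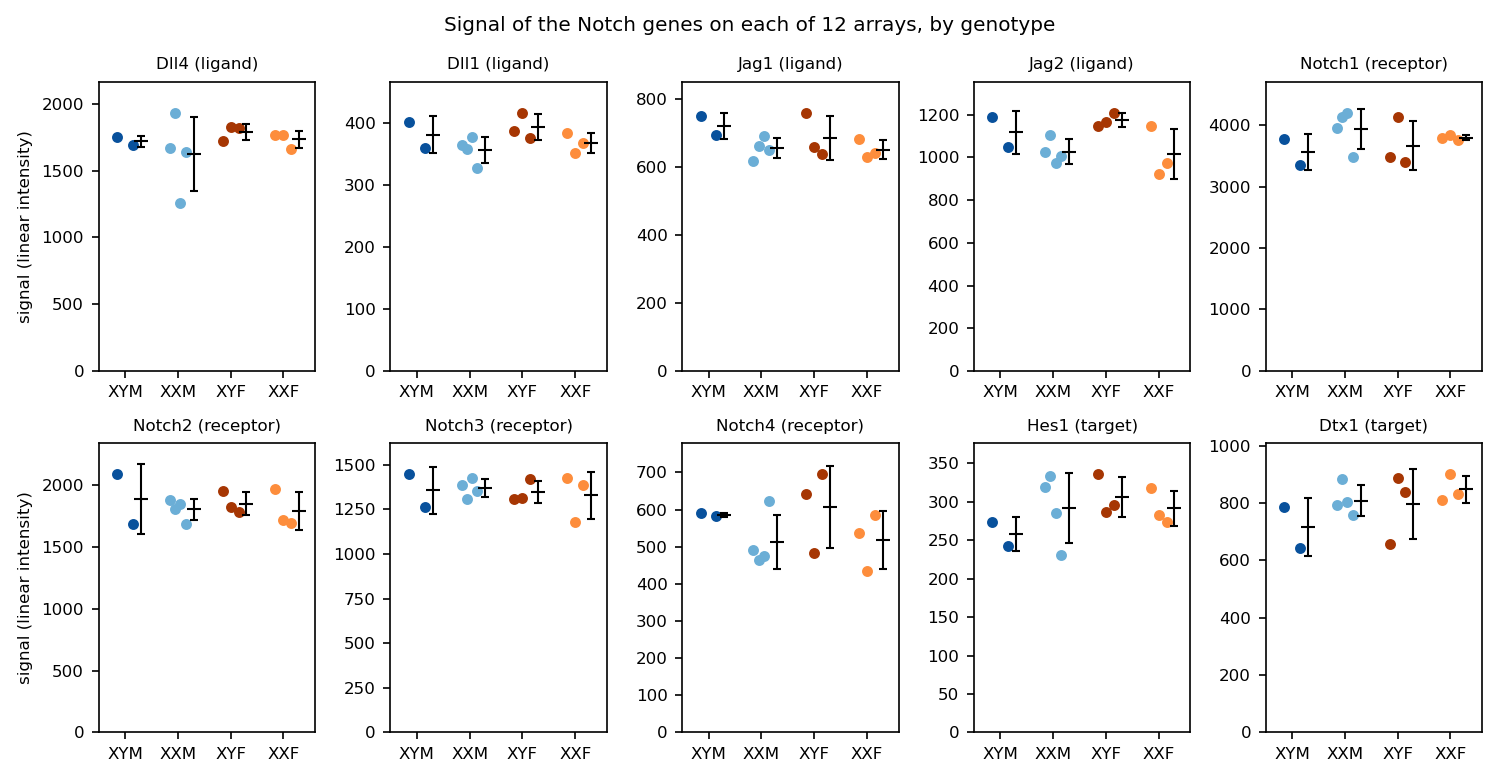
Signal (linear intensity, axes from 0) of each of the 10 genes on each of the 12 arrays, by genotype; points are single arrays and the bars beside them the mean and SD. In every panel male and female arrays overlap, as do XY and XX arrays, and for Dll4 both the highest and the lowest array, 1937 and 1260.3, are XXM.

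Notch1, the receptor through which progenitors take the T lineage, had 3773 and 3358 in XYM, 3955, 4128, 4207 and 3478 in XXM, 3476, 4132 and 3395 in XYF, and 3785, 3844 and 3763 in XXF. XXF arrays spanned only 3763 to 3844, whereas XXM spanned 3478 to 4207 and XYF 3395 to 4132. XY arrays averaged 3627 ± 326 (SD, n = 5) and XX arrays 3880.1 ± 245 (SD, n = 7), with a fitted log2 difference of -0.10 (95% confidence interval -0.26 to 0.06).

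Notch2, a receptor needed by marginal zone B cells and some dendritic cells, ran from 1685 on XXM array 10 to 2087 on XYM array 1. Its males were at 1831 ± 149 and its females at 1821 ± 117 (SD, n = 6 each), a fitted log2 difference of 0.02 (95% confidence interval -0.14 to 0.18). Notch3, found on early thymocytes and on the pericytes that wrap small vessels, ran from 1178 on XXF array 7 to 1448 on XYM array 1. It was the steadiest of the 10: its 4 genotype means lay between 1329 and 1369. Its SD over the 12 arrays ranked 15.6 percent of the way up the probe sets with a mean signal of at least 200. Its XY arrays averaged 1350.4 ± 79.0 (SD, n = 5) and its XX arrays 1352 ± 86.8 (SD, n = 7), and the interval of the fitted XY to XX ratio was 0.904 to 1.11.

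Notch4, a receptor of endothelial cells, varied most. It had 589.5 and 582 in XYM and 491, 463, 474 and 622 in XXM. It had 641, 483 and 696 in XYF and 537, 434 and 586 in XXF. The span over all arrays was 1.60-fold. Its SD ranked 87.9 percent of the way up the probe sets with a mean signal of at least 200. XY arrays were at 598 ± 79.0 (SD, n = 5) and XX arrays at 515 ± 68.9 (SD, n = 7), but XYF array 8 at 483 lay among the low XX arrays and XXM array 10 at 622 among the high XY ones. The fitted log2 difference of 0.21 (XY minus XX, standard error 0.12, 95% confidence interval -0.04 to 0.47) had an unadjusted p of 0.0969 in limma. It was the largest of the 10 in this fit but not in a fit blocked on sets of consecutive array numbers (arrays 1 to 4, 5 to 8, 9 to 12), where Notch4 was at 0.13 and Jag2 at 0.16.

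Hes1, a repressor and a direct Notch target, had 274 and 243 in XYM, 319, 334, 285 and 231 in XXM, 336, 287 and 296 in XYF, and 317, 283 and 274 in XXF. Its mean of 290.1 was the only one of the 10 below the 95th percentile of the olfactory receptor background, with 973 of the 1035 background probe sets beneath it, so differences of Hes1 here are differences of a dim signal. XXM held both the lowest array and 2 of the 4 highest. Males averaged 281 ± 40.7 and females 299 ± 23.4 (SD, n = 6 each), a fitted log2 difference of -0.13 (95% confidence interval -0.34 to 0.09).

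Dtx1, the Deltex gene that Notch switches on in early thymocytes and whose product binds the receptor, had 787 and 645 in XYM, 791, 883, 802 and 756 in XXM, 658, 888 and 839.7 in XYF, and 811, 901 and 831 in XXF. The lowest arrays, XYM array 9 and XYF array 4, were both XY, and no XX array was below 756, but XYF array 8 was the second highest of all. The XY mean was 763 ± 109 (SD, n = 5) and the XX mean 825 ± 51.1 (SD, n = 7), a fitted log2 difference of -0.14 (95% confidence interval -0.34 to 0.05). It was -0.08 without XYF array 4, -0.07 without XYM array 9 and -0.21 without XYM array 1. The male minus female difference was -0.11, and without XYF array 4 it was -0.17, with an unadjusted p under 0.05 in that fit only of the 12 that leave out an array.

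Ranked by genotype mean, the 10 genes did not share an order. XYF came first for Dll4, Dll1, Jag2, Notch4 and Hes1, XYM for Jag1 and Notch2, XXM for Notch1 and Notch3, and XXF for Dtx1. Neighbours in these orders differed by less than the pooled SD within genotypes, with 1 exception. It was Jag2, where XYM at 1119 and XXM at 1028 differed by 90.9 against an SD of 79.3, between XYF at 1174 above them and XXF at 1016 below.

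The comparison of gonadal males with gonadal females asks whether Notch genes follow the gonads. Only gonadal males carried the Sry transgene, so the gonads and the transgene cannot be told apart in it. In limma 0 of the 10 passed an adjusted p under 0.05, where 0.00281% of all probe sets did, and 0 of the 10 had an unadjusted p under 0.05, where 3.03% did. Fitted log2 differences ran from -0.13 for Hes1 to 0.04 for Jag1, 4 of the 10 being above 0, and their median was -0.03 (0.00 over all probe sets, of which 51.3% were above 0). The adjusted p was at least 0.985 for each gene. As a male to female ratio, the 95% bounds of the 10 genes went no lower than 0.790 (Hes1) and no higher than 1.17 (Notch4), and changes inside a gene's bounds cannot be told from none with this number of arrays. Male and female arrays overlapped for all 10, where 0.0731% of all probe sets had no overlap. An exact two-sided permutation test over the 924 groupings of the arrays gave p = 0.260 or higher for each gene.

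The comparison of XY with XX arrays asks whether they follow the sex chromosomes. Again 0 of the 10 passed an adjusted p under 0.05 in limma, where 0.0366% of all probe sets did. At an unadjusted p under 0.05 it was 1 of the 10, Jag2, where 2.55% of all probe sets were. The 4 ligands all lay above 0, at 0.07 for Dll4, 0.10 for Dll1, 0.11 for Jag1 and 0.17 for Jag2. The receptors lay at -0.10 for Notch1, 0.05 for Notch2, 0.00 for Notch3 and 0.21 for Notch4, and the targets at -0.05 for Hes1 and -0.14 for Dtx1. In all 7 of the 10 were above 0, with a median of 0.06 (0.01 over all probe sets, of which 52.6% were above 0). XY and XX arrays overlapped for all 10, where 0.166% of all probe sets had no overlap. The exact two-sided permutation test over the 792 groupings of 5 and 7 arrays, which takes no account of sex, gave unadjusted p = 0.0189 for Jag2, 0.0455 for Dll1, 0.0770 for Jag1 and 0.0871 for Notch4, and 0.136 or higher for the other 6.

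**Figure D2:**
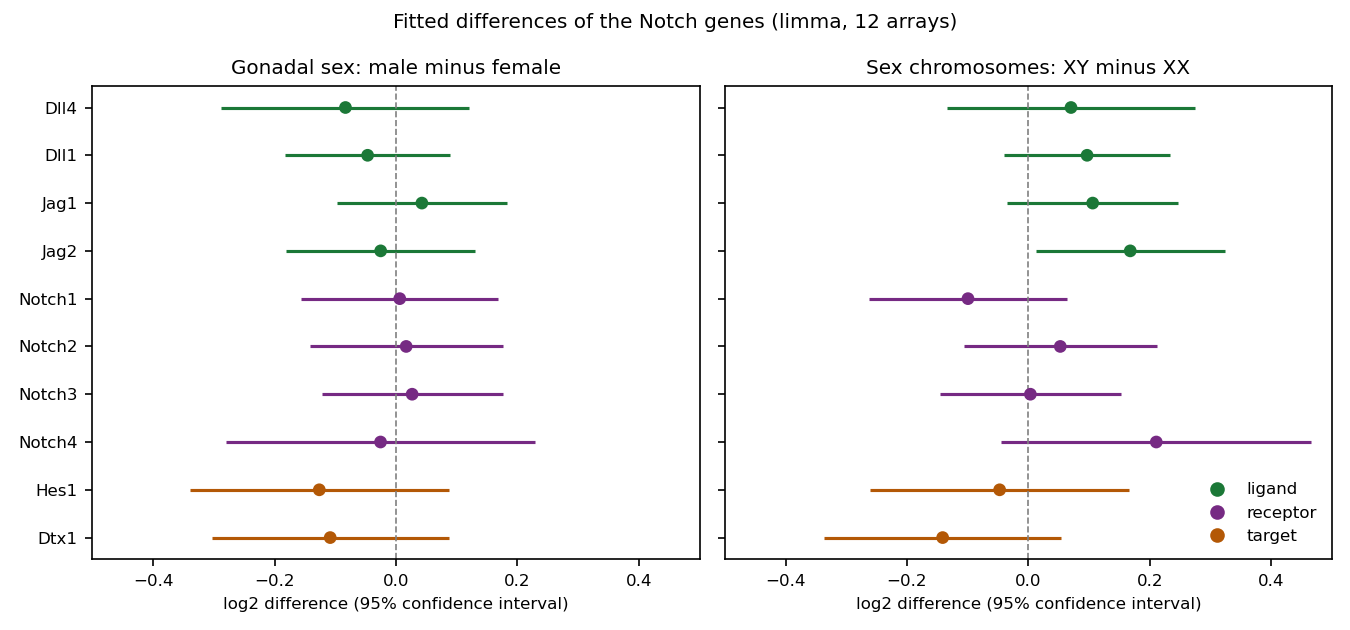
Fitted log2 differences of the 10 genes in limma, male minus female on the left and XY minus XX on the right; points are estimates and bars 95% confidence intervals over 12 arrays. For male minus female every bar crosses 0, and for XY minus XX all but that of Jag2, 0.01 to 0.32, do.

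Within each gonadal sex, the fitted log2 difference of Jag2 was 0.12 between XYM and XXM (95% confidence interval -0.11 to 0.35) and 0.21 between XYF and XXF (0.00 to 0.43). For Notch4 it was 0.20 in males and 0.22 in females, with intervals that included 0. When the same sets of array numbers were a block, the Notch4 difference was 0.03 in males and 0.22 in females (unadjusted p of 0.0223 and adjusted p of 1.00 in limma), and the Jag2 difference 0.10 in males and 0.21 in females. The interaction tests whether these 2 differences were unequal: 0 of the 10 genes passed an adjusted p under 0.05 in limma (0% of all probe sets) and 0 had an unadjusted p under 0.05 (1.54% of all probe sets). Its widest value was that of Hes1, -0.24 (95% confidence interval -0.67 to 0.19), with -0.17 between XYM and XXM and 0.07 between XYF and XXF, neither past the test. The F test over the 4 genotypes called 0 of the 10 at an adjusted p under 0.05, where 0.0281% of all probe sets were called, and its adjusted p was 1.00 for each.

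Marker lists of the cells that carry these genes were compared between XY and XX arrays as a description, and no list was tested as a whole. The summed signal of the 13 thymocyte genes was 40261 to 41437 on XY arrays and 42280 to 46242 on XX arrays, with no overlap, and all 13 fitted differences were below 0 (median log2 -0.11). All 12 endothelial genes lay above 0 (median 0.14), with sums of 11108 to 14432 on XY and 9948 to 12406 on XX arrays. The 9 medullary epithelial genes lay above 0 as well (median 0.10), with sums of 6402 to 7613 on XY and 6124 to 7168 on XX arrays, and so did 9 of 10 cortical epithelial genes (median 0.07), whose sums of 40037 to 45354 on XY arrays lay inside the 36467 to 46719 of XX arrays. Of the 6 fibroblast genes 5 were below 0 (median -0.14). Above 0 were 6 of 8 pericyte and smooth muscle genes, 7 of 9 macrophage and dendritic cell genes and 2 of 5 B cell genes. At an unadjusted p under 0.05 in limma were 1 thymocyte, 1 endothelial, 2 medullary, 1 cortical and 2 fibroblast genes. Of the last 3 lists 0, 1 and 1 were, and of all probe sets 2.55%. In the same comparison the ligands, endothelial Notch4 and Notch2 (0.05) were above 0. Below 0 were Notch1 and Dtx1, which thymocytes express, and Hes1 (-0.05), while Notch3, also found on early thymocytes, was at 0.00. The part of the cell mixture in the differences of the 10 genes was not tested. Between males and females the thymocyte sums overlapped, at 40261 to 45131 in males and 40566 to 46242 in females, while all 10 cortical epithelial genes (median -0.08) and 11 of 12 endothelial genes (median -0.08) were below 0 in males, and all 6 fibroblast genes above 0 (median 0.05). Of the 10 Notch genes 6 were below 0 in this comparison.

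**Figure D3:**
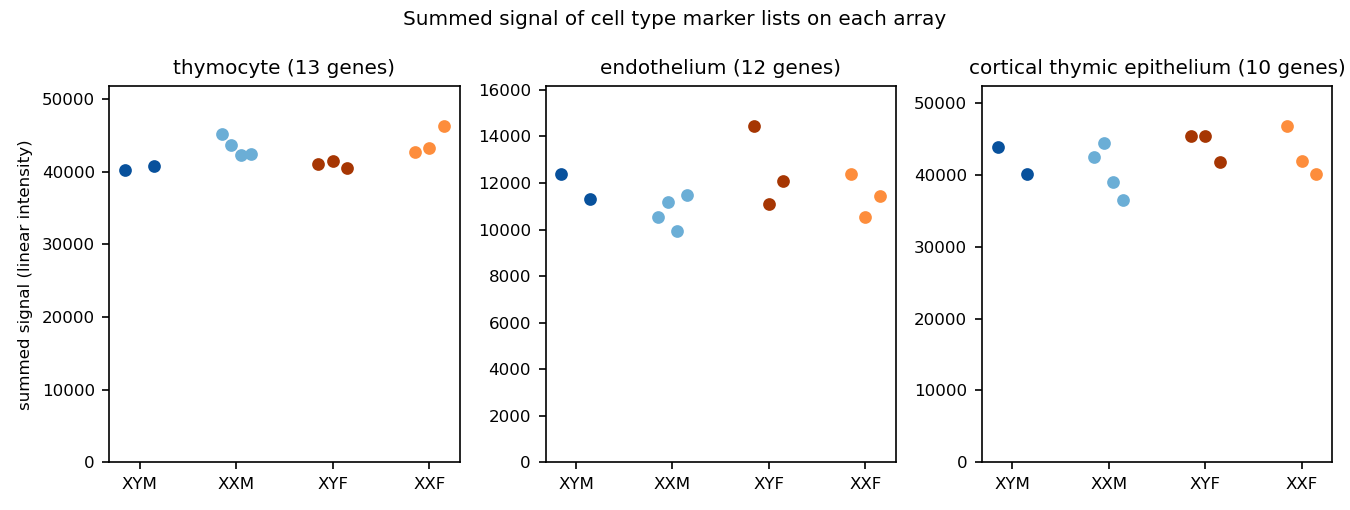
Summed signal (linear intensity, axes from 0) of the thymocyte, endothelial and cortical epithelial marker lists on each array, by genotype; points are single arrays. Thymocyte sums of XYM and XYF arrays, 40261 to 41437, all lie below those of XXM and XXF arrays, 42280 to 46242.

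The wider pathway was read from a list of 63 genes, of which 59 were measured. No gene of it passed an adjusted p under 0.05 in limma for gonadal sex or for the sex chromosomes, and 1 in each had an unadjusted p under 0.05, or 1 of 59, where 3.03% of all probe sets were for gonadal sex and 2.55% for the sex chromosomes. The list's share was not above these, and the genes named next are given as a description. For male minus female the gene was Dll3, an intracellular Delta protein that does not activate Notch in neighbours, at 205 ± 25.1 in males and 177 ± 14.4 in females (SD, n = 6 each), below the background percentile. Its fitted log2 difference was 0.23, and its limma p was 0.0264 unadjusted (adjusted p = 0.985). Next by p came Dtx3l, a Deltex relative, at -0.15, Lfng, the glycosyltransferase that tunes which ligand Notch answers to, at -0.09, and Neurl1a, a ubiquitin ligase for ligands, at 0.13.

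For XY minus XX the gene was Nrarp, a Notch target that feeds back to restrain the pathway, at 444 ± 49.8 on XY arrays (SD, n = 5) and 389.6 ± 39.1 on XX arrays (SD, n = 7). Its fitted log2 difference was 0.18, and its limma p was 0.0464 unadjusted (adjusted p = 1.00). Next by p were Cd3e at -0.12, Ptcra, the pre-T cell receptor alpha chain and a Notch target, at -0.14, and Runx1, a regulator of early T cells, at -0.11. All 9 measured Notch-linked genes of thymocytes were below 0 (median -0.10), of which Cd3e and Ptcra are also on the thymocyte marker list, whose sum was lower on XY arrays. Of 8 other Hes and Hey genes 3 were above 0 (median -0.01), of 7 genes of the nuclear complex around Rbpj 1 was (median -0.05), and of 8 protease genes that cut the receptor 3 were (median -0.03). Other Delta and Delta-like ligands had 3 of 4 above 0 (median 0.10), and glycosyltransferases 3 of 5 (median 0.05). Ubiquitin ligases for ligands had 2 of 4 (median 0.01), corepressors 2 of 5 (median -0.04) and negative regulators 3 of 9 (median -0.04). Of all 59 genes 20 were above 0, where 52.6% of all probe sets were. For male minus female, 8 of the 9 thymocyte genes were also below 0 (median -0.02).

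Some of these genes differed among sets of consecutive array numbers. Arrays 1 to 4, 5 to 8 and 9 to 12 each held 2 male and 2 female arrays, and arrays 5 to 8 held 1 XY array. What the numbers stand for is not given, and this comparison was chosen after the values were seen. In a limma fit with the genotypes, 2 of the 10 genes differed among the sets at an adjusted p under 0.05, where 30.7% of all probe sets did. Notch2 averaged 1970.4 ± 88.3 on arrays 1 to 4, 1798 ± 57.1 on arrays 5 to 8 and 1709.9 ± 44.8 on arrays 9 to 12 (SD, n = 4 each, adjusted p = 0.0374 in limma). Notch4 averaged 565 ± 64.7, 464 ± 21.4 and 621 ± 52.7 on the same sets (SD, n = 4 each, adjusted p = 0.0165 in limma). For Notch2 the lowest of arrays 1 to 4 was above every other array, and for Notch4 the highest of arrays 5 to 8 was below every other, so 2 of the 10 had a set apart, where 20.9% of all probe sets did.

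Notch1 and Hes1 did not pass this test. Notch1, highest on arrays 5 to 8, averaged 3748 ± 199, 4078 ± 160.2 and 3499 ± 183 on arrays 1 to 4, 5 to 8 and 9 to 12 (SD, n = 4 each, adjusted p = 0.0686 in limma), and Hes1, lowest on arrays 9 to 12, averaged 312 ± 26.6, 297 ± 24.3 and 261 ± 29.6 (SD, n = 4 each, adjusted p = 0.0938 in limma). Dll4 averaged 1729 ± 43.0, 1698 ± 300.1 and 1703 ± 81.0 (SD, n = 4 each, adjusted p = 0.981 in limma). With the sets as a block, 0 of the 10 genes passed an adjusted p under 0.05 for either comparison. At an unadjusted p under 0.05 the block fit had 0 of the 10 for gonadal sex, where 11.5% of all probe sets were, and 1 for the sex chromosomes, Jag2 at 0.16, where 6.90% were.

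Within the sets the XY minus XX log2 difference of Jag2 was 0.11 on arrays 1 to 4, 0.22 on arrays 5 to 8 and 0.19 on arrays 9 to 12, above 0 in each. That of Notch4 was 0.26, 0.08 and 0.07, and that of Dtx1 was -0.15, 0.05 and -0.11. For male minus female, Dll4 was at -0.03, -0.20 and -0.07, and Dtx1, at 0.11, -0.09 and -0.26, crossed 0. The values for arrays 5 to 8 rest on 1 XY array, and none of these within-set values takes account of the other factor.

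**Figure D4:**
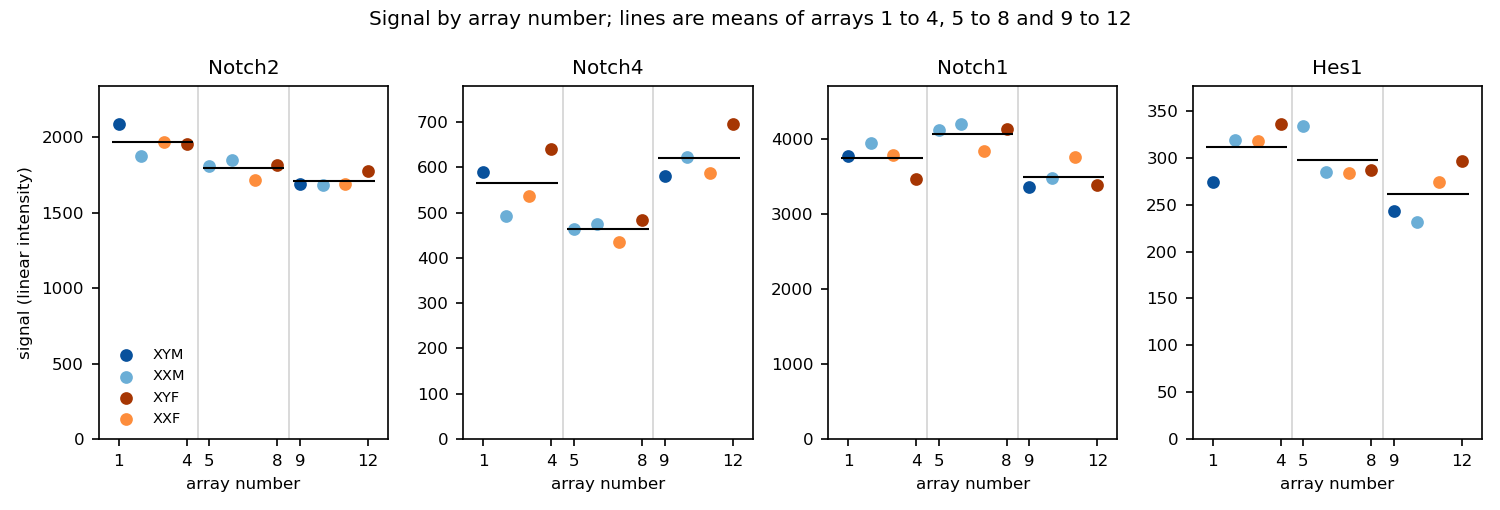
Signal (linear intensity, axes from 0) of Notch2, Notch4, Notch1 and Hes1 against array number, coloured by genotype; black lines are the means of arrays 1 to 4, 5 to 8 and 9 to 12. Notch2 is highest on arrays 1 to 4, at a mean of 1970.4, and Notch4 lowest on arrays 5 to 8, at a mean of 464.

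Epithelial and stromal ligands were set against the targets over the 12 arrays, 4 ligands by 2 targets, giving 8 pairs. None passed: the lowest permutation p adjusted over the 8 pairs was 0.329 for Pearson's r and 0.251 for Spearman's rho. By Pearson's r Jag1 and Dtx1 came closest, with r = -0.59 (permutation p = 0.0411, adjusted p = 0.329). Their rho was -0.56 (permutation p = 0.0628, adjusted p = 0.251). By rho Dll4 and Dtx1 had a lower unadjusted permutation p, 0.0485, and the same adjusted p. The arrays brightest for Jag1 were dim for Dtx1, as on XYF array 4 with 760.4 for Jag1 and 658 for Dtx1. Without XYM array 1 and XYF array 4, the arrays farthest from the median of Jag1, r was -0.46, and without XYF array 4 alone it was -0.39 (permutation p = 0.237). Within arrays 1 to 4, 5 to 8 and 9 to 12 it was -0.59, -0.87 and -0.98, each over 4 arrays. Centred on these sets it was -0.66 (permutation p = 0.0202, adjusted p = 0.162). This permutation shuffled all 12 arrays and not those within a set, so its p is not that of a test within sets.

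Dll4, the ligand Notch1 answers to in the thymus, had a lower r than rho with both targets, and neither pair passed. Its r with Dtx1 was 0.23 (permutation p = 0.444, adjusted p = 0.710) and its rho 0.59 (permutation p = 0.0485, adjusted p = 0.251). XXM array 6 had the lowest Dll4 signal and a Dtx1 signal of 802, in the middle of its range. Without XXM arrays 5 and 6, the farthest from the Dll4 median, r was 0.50, and without XXM array 6 alone it was 0.56 (permutation p = 0.0765). Within the sets of arrays it was 0.18, 0.94 and 0.36. With Hes1, Dll4 had r = 0.27 (permutation p = 0.400, adjusted p = 0.710) and rho = 0.49 (permutation p = 0.111, adjusted p = 0.295). That r was 0.41 without XXM arrays 5 and 6, and 0.54 without XXM array 6 alone (permutation p = 0.0840). Its r with Hes1 was -0.35, 0.50 and 0.80 within the sets, so its sign was not the same in each.

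**Figure D5:**
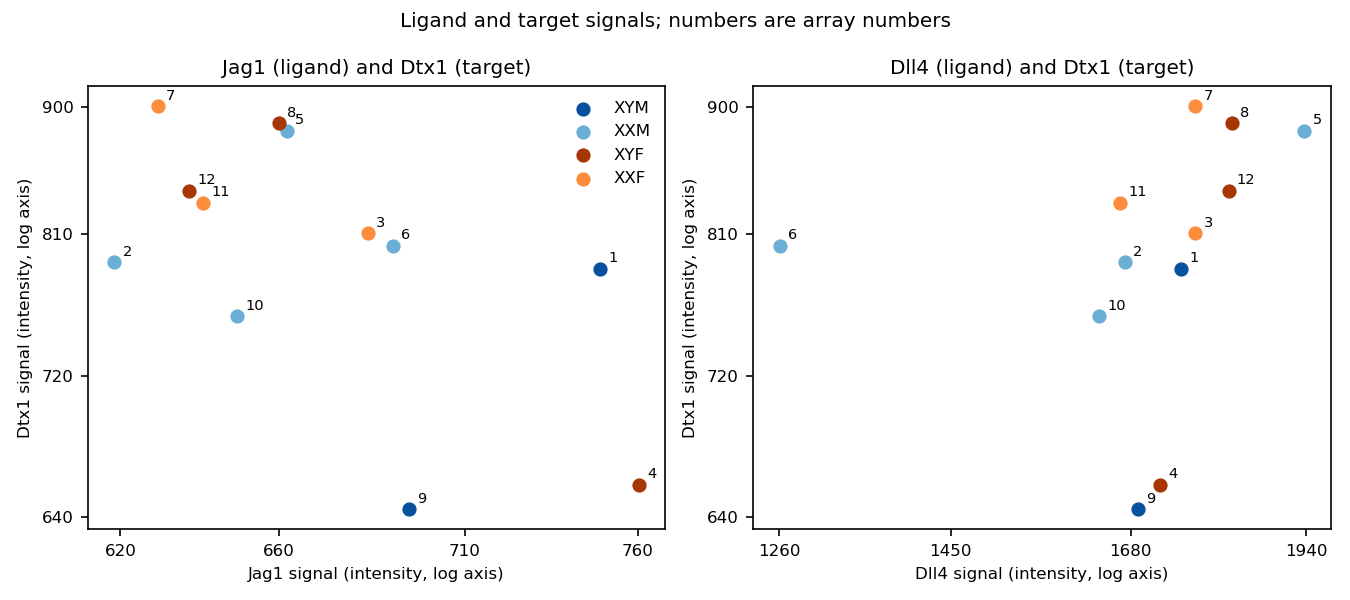
Signal of Dtx1 against that of Jag1 (left) and Dll4 (right) on the 12 arrays (intensity, log axes), coloured by genotype and numbered by array. Pearson's r is -0.59 on the left and 0.23 on the right, where array 6 lies far to the left of the others.

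For each of the 10, the genes most like it were the 3 with the highest Pearson r of log2 signal over the 12 arrays, out of 14449 named genes whose mean signal reached 200. These r are descriptions, picked as the highest of many and sharing the sets of arrays. Dll4 was most like Cd83, a surface protein of mature dendritic cells and thymic epithelium (r = 0.96), followed by Med26 and Ajap1 (both 0.95). Dll1 was most like Cd274, the gene of the checkpoint ligand PD-L1 (0.93), then Rit1 and Parp9. Jag1 was most like Lrrk2 (0.93), then Adgrl2 and Thbs4. Jag2 was most like Igdcc4 (0.95), then Hcn4 and Bhlhe41.

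Among the receptors, Notch1 was most like Atad3a (0.94), then Arih1 and Ctage5. Notch2 was most like Spred1 (0.96), then St14 and Ccn1, and its r with Spred1 was 0.78 once both were centred on the sets of arrays. Notch3 was most like Dusp4 (0.90), a phosphatase of the MAP kinase pathway, then Pfkfb3 and Telo2. Notch4 was most like Pear1 (0.96), a receptor of platelets and endothelium, then Arap3, found in endothelium, and Vsig2, and its r with Pear1 was 0.90 when centred. For the targets, Hes1 was most like Rpap3 (0.93), then Dscc1 and Ttk, genes of cell division, and Dtx1 most like Slc38a2 (0.91), an amino acid transporter, then Taf6 and Plagl2.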

How the data were processed

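RNA from day 7 thymic epithelium/stroma was measured on 12 Affymetrix mouse GeneChip 1.0 ST arrays, 1 column of the deposited table each, with 0 columns left without a sample. The authors deposited 1 linear intensity per array for each of 35556 probe sets, and these values were used as they stand. PLIER in Affymetrix Expression Console 1.1 is listed in the submitters' processing notes, but the methods describe RMA with quantile normalization. Gene symbols came from the platform annotation, brought up to date with RefSeq GRCm38.p6: 1 for 21789 probe sets, several for 1621 and none for 12146. The number of arrays limits the precision, and array medians lay between 327.5 and 345.5.

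In R 4.3.3, lmFit and eBayes of limma 3.58.1 were run on log2 intensities with 4 genotype means over all probe sets, with contrasts for gonadal sex (the 2 male minus the 2 female genotypes), sex chromosomes (XY minus XX) and their interaction, Benjamini-Hochberg adjustment and a threshold of 0.05. Means and SDs are on the linear scale. Permutation tests of single values were exact and those of correlations used 100000 resamples, all two-sided. They were run in NumPy 2.4.6, with ranks and the adjustment over pairs from SciPy 1.17.1. The limma contrast for gonadal sex was tested on simulated data, and the other steps were not.

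The 10 genes, the pathway list and the marker lists were chosen with earlier results of these data known. Named in the text are the 10 genes, any pathway gene past the threshold and the 4 with the lowest unadjusted p for each main contrast, and the 3 genes most like each of the 10. Foxn1, Psmb11 and Cd79a were named as defining markers, and Cd79b and Blk as the B cell genes above the background percentile. Of the 63 genes of the pathway list 59 were analysed, and of the 76 marker genes 72 were. Alternatives were a new quantile normalization, adding 16 before log2, keeping probe sets with a mean signal of at least 200 or with 1 symbol, trend and robust moderation, array weights, array-number sets as a block, an additive model, averaging the probe sets of a gene, and fits without each array in turn.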

Additional observations from a re-analysis of the deposited data

Results flagged for a closer look

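Dtx1 on XYF array 4 had a signal of 657.8, apart from the other 5 female arrays, of which the nearest was at 811. The gap was 0.629 of the range of the female arrays. Chance puts a sample this far from the rest in about 1 of 20 groups, and this was 1 of the 50 groups of 4 to 10 arrays looked at for the 10 genes. The same array had the highest signals of Jag1 and Hes1.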

How the results depend on the processing

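0 of the 10 genes passed an adjusted p under 0.05 for gonadal sex, the sex chromosomes, the interaction or the F test, in the fit reported and in every alternative that gives that test, and 0 to 1 had an unadjusted p under 0.05. Of the single-gene differences under these alternatives, 400 kept their direction and 20 did not. With array weights the male minus female log2 difference of Notch1 was -0.0055, and with the array-number sets as a block the XY minus XX difference of Notch3 was -0.019. Leaving out 1 array at a time, the male minus female difference ran from -0.071 to 0.021 for Jag2, from -0.036 to 0.051 for Notch1, from -0.060 to 0.094 for Notch2, from -0.023 to 0.076 for Notch3 and from -0.10 to 0.028 for Notch4. The XY minus XX difference ran from -0.025 to 0.13 for Notch2 and from -0.046 to 0.053 for Notch3. The cause of these was not tested. For Jag2 the XY minus XX difference stayed between 0.12 and 0.21 in all alternatives, but its unadjusted p was under 0.05 in 4 of the 12 fits that leave out an array, and was 0.0701 with array weights and 0.160 without XYM array 1. None of the 8 ligand and target pairs passed in any alternative run for them. Each gene had 1 probe set, so averaging probe sets changed no difference. Hes1 and Dll1 were close to the background of the arrays, which limits what their differences can show.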
